A study of Mus musculus with 88 samples.

Results

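Ion channel and gap junction genes were followed in whole mouse hearts as ischaemic heart disease developed. The set took every gene whose symbol begins with Kcn (potassium channel subunits), Cacn (calcium channel subunits), Gja, Gjb, Gjc or Gjd (connexins, the gap junction proteins), or with Hcn or Scn and a digit (pacemaker and sodium channel subunits), if a probe set of the array was annotated to that gene and no other. This gave 73 of the 8251 genes so annotated: 42 potassium channel genes, 12 calcium channel genes, 11 connexins, 6 sodium channel genes and 2 pacemaker channel genes. Where several probe sets named a gene, the one with the highest mean signal was used. Of the 73 genes, 28 were bright enough to be among the 5672 genes tested: 18 potassium, 4 calcium, 4 connexin and 2 pacemaker genes, and no sodium channel gene.

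All mice lacked apoE. The dKO mice also lacked the HDL receptor SR-BI (genotype SR-BI-/- apoE-/-), and the HET controls carried 1 working copy of it (SR-BI+/- apoE-/-). The submitters describe dKO mice on chow as free of detectable coronary disease at 21 days, with small infarcts and heart failure at 31 days and extensive infarction with severe failure at 43 days, and HET mice on chow as free of such signs. Each array held 1 mouse, and there were 10, 10 and 12 dKO and 9, 10 and 9 HET hearts on chow at 21, 31 and 43 days, with 6, 8 and 6 dKO and 3, 3 and 2 HET hearts fed probucol, an antioxidant that lowers blood lipids. A second label of 1 dKO chow heart of 21 days (replicate 2) gives 31 days; it was kept where its title puts it, and without it all 70 gene calls were kept. Values are log2 signals relative to the median of the same array, so 0 is the array's median probe set, and a level of one gene cannot be set against that of another. Where 3 medians of a gene are given for a genotype and diet, they are those of 21, 31 and 43 days in turn. Whether probucol hearts were free of infarcts is not stated in the sources used here.

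Each heartbeat is an electrical wave. Sodium channels start the action potential of a heart muscle cell, L-type calcium channels hold its plateau and let in the calcium that triggers contraction, and several kinds of potassium channel end it and set the resting potential. Pacemaker (Hcn) channels carry an inward current on hyperpolarisation, and connexins join neighbouring cells at intercalated discs so that the wave can pass. In failing and infarcted hearts, altered channel and connexin expression is known as electrical remodelling.

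Of the 6 genes whose genotype difference at 43 days was called under each of 4 scalings described further on, 4 had an entry in the RefSeq promoter table (build GRCm38.p6): Cacna2d1, Hcn2, Kcnh2 and Gja4. They are shown to let a reader see the letters upstream of the genes on which the results turn. Each is the 250 bases before the annotated start, 5′ to 3′ on the gene's own strand, with every GC box (GGGCGG, or its reverse complement) in capitals. The windows lie at chr5:15934441-15934690 on the plus strand for Cacna2d1, chr10:79716384-79716633 on the plus strand for Hcn2, chr5:24329592-24329841 on the minus strand for Kcnh2 and chr4:127314040-127314289 on the minus strand for Gja4.
Cacna2d1: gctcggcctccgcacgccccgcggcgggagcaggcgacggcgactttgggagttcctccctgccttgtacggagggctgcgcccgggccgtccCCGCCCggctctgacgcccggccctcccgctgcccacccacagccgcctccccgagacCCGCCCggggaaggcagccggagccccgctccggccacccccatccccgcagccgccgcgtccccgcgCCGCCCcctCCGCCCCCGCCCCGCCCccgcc
Hcn2: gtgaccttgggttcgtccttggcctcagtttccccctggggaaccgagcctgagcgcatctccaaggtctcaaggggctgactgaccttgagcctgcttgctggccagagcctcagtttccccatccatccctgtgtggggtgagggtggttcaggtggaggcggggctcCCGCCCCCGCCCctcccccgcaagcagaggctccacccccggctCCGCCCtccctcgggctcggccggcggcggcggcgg
Kcnh2: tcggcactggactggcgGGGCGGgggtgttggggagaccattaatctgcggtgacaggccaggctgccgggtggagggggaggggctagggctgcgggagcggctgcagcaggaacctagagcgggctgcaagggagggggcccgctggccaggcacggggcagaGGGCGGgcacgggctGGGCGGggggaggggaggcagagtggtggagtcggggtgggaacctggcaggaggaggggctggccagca
Gja4: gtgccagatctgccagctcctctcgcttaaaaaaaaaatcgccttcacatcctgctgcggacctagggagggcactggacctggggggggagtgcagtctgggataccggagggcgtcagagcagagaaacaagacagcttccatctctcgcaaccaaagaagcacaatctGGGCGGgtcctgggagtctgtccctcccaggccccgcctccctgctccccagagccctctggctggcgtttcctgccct
The GC box occurred 6 times in the Cacna2d1 window, 3 times in each of the Hcn2 and Kcnh2 windows and 1 time in that of Gja4. GC made up 82.4% of the Cacna2d1 window, 70.4% of that of Hcn2, 73.6% of that of Kcnh2 and 61.2% of that of Gja4. Of all 32851 windows of this length, 32.7% held a GC box, against 15 of the 29 windows of tested channel and connexin genes (51.7%), which come from 22 genes, some with several windows. On either strand, no window shown held the TATA box TATAAA (12.4% of all windows did), the GATA motif AGATAA (9.99%) or the M-CAT motif CATTCC (12.6%). These are matches of letters and say nothing of binding.

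The hearts were checked before the genes were read. Scarb1, which encodes SR-BI, was lower in dKO than in HET chow hearts by 1.36 (SE 0.14) at 21 days, 1.07 (SE 0.13) at 31 days and 1.04 (SE 0.13) at 43 days on the log2 scale, as the labels require. Median signals of the arrays ran from 27.8 to 75.4, and dKO chow hearts at 43 days were bright (46.9 to 75.4, against 35.4 to 75.4 in HET), so how arrays are scaled matters. The 28 genes varied more between mice of one group than genes at large did (median pooled SD 0.48, against 0.37 over all 5672 genes). The arrays also fell into sets of 68 and 20 along the second component of the residuals, with 6 of 10 dKO and 2 of 9 HET chow arrays of 21 days in the smaller one, none and 6 of 10 at 31 days, and none and 3 of 9 at 43 days.

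Cell type markers moved with genotype. At 43 days all 7 heart muscle markers were lower in dKO than in HET chow hearts under the main scaling (median difference -0.88, with 5 of the 7 called as deposited and 5 after quantile normalization), with their mean level at 5.46 to 6.36 against 6.05 to 7.13. All 7 macrophage markers tested were higher (median 2.66, mean level 4.09 to 4.97 against 1.69 to 2.5), as were 5 of 7 fibroblast markers, with 1 lower (median 0.79, mean level 4.9 to 5.29 against 3.54 to 4.28). Of 6 endothelial markers 1 was higher and none lower (mean level 1.94 to 2.6 against 1.96 to 2.55). Both atrial markers tested were lower (median -1.47, mean level 3.17 to 5.02 against 5.23 to 6.43), and so was the ventricular one (-0.52). All 3 erythroid markers were higher (median 1.88), 2 of 6 smooth muscle and pericyte markers and 2 of 4 skeletal muscle markers were lower (as deposited 2 smooth muscle markers were higher and 1 lower, and 1 skeletal muscle marker was higher and none lower), the lymphocyte and fat markers tested, 1 each, were lower (-1.29 and -1.32), and the 1 nerve marker was higher (1.03, and 0.57 and not called with the array set as a block). In dKO hearts on probucol at 43 days the heart muscle markers stood at 6.66 to 7.06 and the macrophage markers at 2.08 to 2.35. The part of these shifts in the results on channels was not tested, and in whole hearts fewer cells of a type and less RNA per cell cannot be told apart.

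On chow, calls in these genes were few at 21 days and many at 43 days, as they were over all genes. At 21 days 1 of the 28 genes was higher in dKO hearts and none lower (limma with Benjamini-Hochberg adjustment over all genes, adjusted p under 0.05), where 4.07% of all genes tested were higher and 0.917% lower. At 31 days 1 was higher and 7 were lower, beside 8.27% and 23.0% of all genes, with a median difference of -0.3 against -0.14 over all genes. At 43 days 1 was higher and 14 lower, beside 19.2% and 28.0% of all genes, and the median was -0.41 against -0.09. The 14 lower in dKO hearts at 43 days were Cacna2d1, Cacna1c and Cacnb2 of the L-type calcium channel, Kcnd3, Kcna5, Kcnq1, Kcnh2, Kcnj11, Kcnj8, Kcnk3, Kcnk4 and Kcnn1 of the potassium channels, the pacemaker gene Hcn2 and the connexin gene Gja1. The connexin gene Gja4 was higher. Where genotypes are compared, fell and rose mean lower and higher in dKO than in HET hearts of the same age, and not a change with age. The other 13 did not pass the test.

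**Figure D1:**
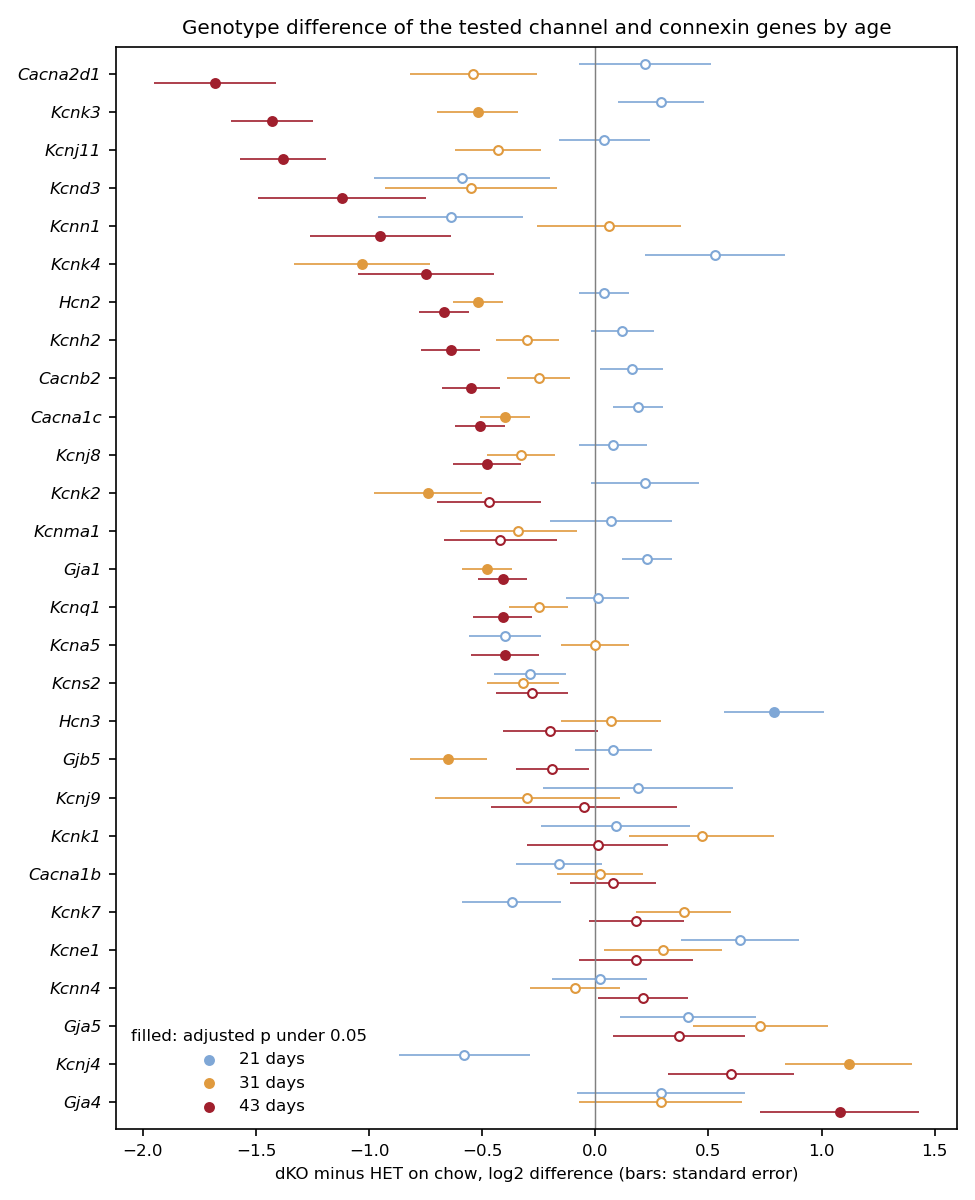
Log2 difference of dKO minus HET hearts on chow (x axis) for the 28 tested genes at 21, 31 and 43 days, with points for the estimate, bars for its standard error and filled points for an adjusted p under 0.05. At 43 days 14 genes lie left of 0 with filled points, led by Cacna2d1 (-1.68), and Gja4 (1.08) lies to the right.

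Scaling decided many of these calls. Array centring put the median of all genes at -0.09 at 43 days, whereas the signals as deposited put it at 0.26, a shift of all genes that also moved every channel gene up by about the same amount. Under 4 settings (arrays centred, quantile normalized, as deposited, or centred with the array set as a block) 1 gene stayed higher at 43 days (Gja4) and 5 stayed lower (Cacna2d1, Kcnj11, Kcnk3, Hcn2 and Kcnh2), beside 18.1% of all genes higher and 11.6% lower by the same rule. At 31 days none of the 28 genes was called under all 4 (5.04% of all genes higher, 3.72% lower), although 8 were called by limma under the main scaling and 12 had an unadjusted p under 0.05. As deposited, limma called none higher and 1 lower (Kcna5, -0.62, adjusted p = 0.0238) at 21 days, beside 0.670% and 1.41% of all genes. On that scale 3 were higher and none lower at 31 days, beside 1135 and 220 of the 5672 genes. At 43 days 2 were higher and 5 lower, beside 37.0% and 11.6% of all genes.

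**Figure D2:**
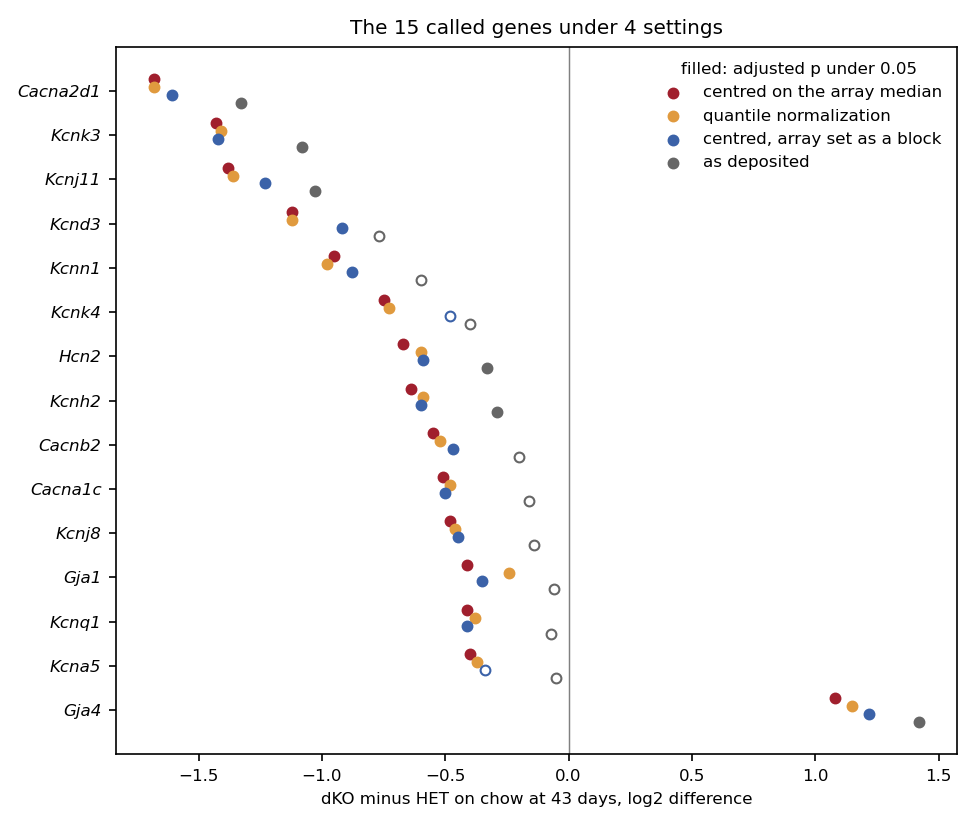
Log2 difference of dKO minus HET chow hearts at 43 days (x axis) for the 15 called genes, computed under 4 settings, with filled points for an adjusted p under 0.05. Cacna2d1, Kcnk3, Kcnj11, Hcn2, Kcnh2 and Gja4 are filled in all 4, whereas Gja1 moves from -0.41 centred to -0.06 as deposited.

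All 3 tested L-type calcium channel genes fell at 43 days with arrays centred, and 1 of them, Cacna2d1, as deposited too. The channel is a pore (Cacna1c, Cav1.2) with an intracellular beta subunit (Cacnb2), which brings it to the membrane, and an extracellular alpha2delta subunit (Cacna2d1), which raises its surface density. Cacna2d1 read -0.11 to 0.62 (median 0.12) on the 9 HET chow arrays and -3.26 to -0.09 (median -1.22) on the 12 dKO chow arrays at 43 days. Of the 12 dKO hearts 11 lay below every HET heart, and the dKO group was wide (SD 0.92, against 0.27 in HET). Earlier, at 21 and 31 days, medians of Cacna2d1 were -0.02 and 0.17 in HET chow hearts and 0.43 and -0.41 in dKO chow hearts. Its signal was 3.21-fold lower in dKO hearts at 43 days (log2 difference -1.68, SE 0.27, limma adjusted p = 2.35e-07), the largest fall of the 28 genes under the main scaling, and -1.33 as deposited (adjusted p = 2.43e-04). At 31 days its difference of -0.54 missed the threshold (adjusted p = 0.136).

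Cacna1c, the pore, read 2.21 to 2.95 (median 2.65) on the 9 HET chow arrays and 1.84 to 2.55 (median 2.12) on the 12 dKO chow arrays at 43 days, and 9 of the 12 dKO hearts lay below every HET heart. Medians at 21 and 31 days of Cacna1c were 2.5 and 2.65 in HET chow hearts and 2.68 and 2.23 in dKO chow hearts. It fell 1.42-fold at 43 days (-0.51, SE 0.11, adjusted p = 3.85e-05) and 1.32-fold at 31 days (-0.4, SE 0.11, adjusted p = 0.00277), but as deposited the differences were -0.16 and -0.08 and neither was called (adjusted p = 0.354 and 0.718). Cacnb2 read 1.92 to 2.88 (median 2.28) on the 9 HET chow arrays and 1.59 to 2.14 (median 1.7) on the 12 dKO chow arrays, with 10 of 12 dKO hearts below all HET hearts. In younger hearts of 21 and 31 days, the medians of Cacnb2 were 2.41 and 2.17 in HET chow hearts and 2.59 and 2 in dKO chow hearts. It fell 1.47-fold at 43 days (-0.55, SE 0.13, adjusted p = 3.56e-04), and not past the threshold as deposited (-0.2, adjusted p = 0.306). The small folds of Cacna1c and Cacnb2 at 43 days were thus called with arrays centred or quantile normalized, and not as deposited. That of Cacna2d1 was called each way. At 31 days the call of Cacna1c was also lost after quantile normalization. The remaining calcium channel gene tested, Cacna1b, which encodes the pore of the N-type channel of nerve endings, ran from -0.46 to 1.68 (median 0.91) in HET and 0.24 to 1.19 (median 0.9) in dKO hearts, and its difference was 0.08 (SE 0.19).

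Potassium channels that end the action potential came next. In the mouse the fast transient current uses Kv4.2 (Kcnd2) and Kv4.3 (Kcnd3), and Kv1.5 (Kcna5) carries part of a separate, slowly inactivating current. Kcnd3 read -0.49 to 2.41 (median 1.62) on the 9 HET chow arrays and -1.76 to 0.97 (median 0.46) on the 12 dKO chow arrays at 43 days, and the groups overlapped widely, with 2 dKO hearts below every HET heart. It was 2.17-fold lower in dKO hearts (-1.12, SE 0.37, adjusted p = 0.00911), and was not called as deposited (-0.77, adjusted p = 0.0924), on the larger array set alone or with the Gapdh ratio as a covariate. The medians of Kcnd3 were 1.22, 1.19 and 1.62 in HET chow hearts, 0.25, 0.5 and 0.46 in dKO chow hearts, 1.26, 1.23 and 1.15 in dKO probucol hearts and 1.07, 1.16 and -0.26 in HET probucol hearts. At 21 days the genotype difference of Kcnd3 was -0.59 (SE 0.39, adjusted p = 0.381), and its change from 21 to 43 days was not called. Kcnd2 was too dim for the main test. Without the filter on low signals it differed by -1.31 (SE 0.23, adjusted p = 1.28e-06) at 43 days, and by -0.96 as deposited (adjusted p = 6.78e-04), with -1.29 to 0.58 (median -0.58) on the 9 HET chow arrays and -2.44 to -1.43 (median -1.91) on the 12 dKO chow arrays, so that every dKO heart lay below every HET heart. Among the 5672 genes tested with the filter, these 2 groups did not overlap for 8.16%, and for none of the 28 channel and connexin genes. The medians of Kcnd2 were -0.52, -0.48 and -0.58 in HET chow hearts, -1.18, -1.66 and -1.91 in dKO chow hearts, -1.08, -0.76 and -0.93 in dKO probucol hearts and -1.22, -1.53 and -0.84 in HET probucol hearts. Its other probe set gave -1.43 at 43 days but 0.02 at 31 days, where the brighter one gave -1.03.

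Kcna5 read 0.64 to 2.53 (median 1.36) on the 9 HET chow arrays and -0.07 to 1.46 (median 0.93) on the 12 dKO chow arrays at 43 days. It differed by -0.4 (SE 0.15, adjusted p = 0.0254), a call lost as deposited (-0.05, adjusted p = 0.828) and with the array set as a block (adjusted p = 0.059). The difference of Kcna5 was also -0.4 at 21 days, where it was not called (SE 0.16, limma adjusted p = 0.127), and 0 at 31 days. Its medians were 1.8, 1.33 and 1.36 in HET chow hearts, 1.34, 1.29 and 0.93 in dKO chow hearts, 1.14, 0.98 and 1 in dKO probucol hearts and 1.28, 1.55 and 1.42 in HET probucol hearts. The slow delayed rectifier is Kcnq1 with its small partner Kcne1. Kcnq1 read 1.63 to 2.54 (median 2.2) on the 9 HET chow arrays and 1.41 to 2.56 (median 1.7) on the 12 dKO chow arrays, a difference of -0.41 (SE 0.13, adjusted p = 0.00586) that was -0.07 as deposited (adjusted p = 0.782). Its second probe set gave -0.5 (adjusted p = 0.0123). The medians of Kcnq1 were 1.82, 2.13 and 2.2 in HET chow hearts, 1.84, 1.85 and 1.7 in dKO chow hearts, 1.81, 1.87 and 1.99 in dKO probucol hearts and 1.82, 2.16 and 2.13 in HET probucol hearts. Kcne1 did not pass the genotype test at any age. Its medians were 2.03, 1.77 and 1.06 in HET chow hearts, 2.59, 1.97 and 1.28 in dKO chow hearts, 2.51, 1.6 and 0.67 in dKO probucol hearts and 2.06, 1.45 and 0.7 in HET probucol hearts, and thus lay lower at 43 than at 21 days in each genotype and on each diet. In HET chow hearts Kcne1 fell 2.11-fold from 21 to 43 days (-1.08, SE 0.27, adjusted p = 0.0144), the 1 call among the 28 genes with age, where 0.934% of all genes rose and 1.69% fell (as deposited 3 of the 28 rose and 1 fell, beside 19.3% and 0.494%). That call held under all 4 settings but was lost without the lowest HET heart of 43 days, replicate 1 (-0.87, adjusted p = 0.0637), and with array weights (adjusted p = 0.0582).

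Kcnh2, which encodes the hERG channel of the rapid delayed rectifier, read 1.37 to 2.69 (median 2.44) on the 9 HET chow arrays and 1.4 to 1.93 (median 1.58) on the 12 dKO chow arrays at 43 days. The dKO hearts were tightly grouped (SD 0.18) and the HET hearts were not (SD 0.43), and no dKO heart lay below the lowest HET heart. It fell 1.56-fold (-0.64, SE 0.13, adjusted p = 4.07e-05), and by 0.29 as deposited (adjusted p = 0.0463). That call did not hold when the signals as deposited were also left without a filter. At 21 and 31 days the medians of Kcnh2 were 2.44 and 2.39 in HET chow hearts and 2.54 and 2.05 in dKO chow hearts. At 31 days the difference of Kcnh2 was -0.3 (adjusted p = 0.0849).

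Inward rectifiers hold the resting potential or sense metabolism. Kcnj11 encodes Kir6.2, the pore of the ATP-sensitive potassium channel that opens when ATP runs low. It read 1.38 to 3.04 (median 2.47) on the 9 HET chow arrays and -0.87 to 1.8 (median 1.06) on the 12 dKO chow arrays at 43 days, and 8 of the 12 dKO hearts lay below every HET heart. Earlier, at 21 and 31 days, medians of Kcnj11 were 2.59 and 2.43 in HET chow hearts and 2.5 and 2.04 in dKO chow hearts. Kcnj11 fell 2.6-fold at 43 days (-1.38, SE 0.19, adjusted p = 3.10e-09), and its difference as deposited was -1.03 (adjusted p = 4.09e-05). Its call was kept under each alternative run, with values from -1.41 to -0.97. At 31 days the difference was -0.43 and missed the threshold (adjusted p = 0.0842). Kcnj8 encodes Kir6.1, the pore of the same channel type in vessels. It read 0.93 to 2.2 (median 1.67) on the 9 HET chow arrays and 0.63 to 1.96 (median 1.13) on the 12 dKO chow arrays, a difference of -0.48 (SE 0.15, adjusted p = 0.00467), which was -0.14 as deposited (adjusted p = 0.405) and not called. The smooth muscle and pericyte markers stood at 1.01 to 1.73 in these dKO hearts and 1.09 to 2.32 in HET hearts, and their part in the result was not tested. The medians of Kcnj8 were 1.76, 1.91 and 1.67 in HET chow hearts, 1.92, 1.57 and 1.13 in dKO chow hearts, 1.57, 0.96 and 1.09 in dKO probucol hearts and 1.68, 0.99 and 0.92 in HET probucol hearts, lower on probucol than on chow at 31 days in each genotype.

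Kcnj4 (Kir2.3, an inward rectifier) went the other way at 31 days. It read -2.36 to 0.37 (median -0.71) on the 10 HET chow arrays and -0.86 to 0.72 (median 0.31) on the 10 dKO chow arrays, so the HET group reached far lower and the upper ends overlapped. The difference was 1.12 (SE 0.28, adjusted p = 0.00153) and 1.44 as deposited (adjusted p = 2.38e-04). It shrank to 0.48 with the array set as a block (adjusted p = 0.171) and was not called on the larger set alone, and 6 of the 10 HET arrays but none of the dKO arrays at 31 days were of the smaller set. The medians of Kcnj4 were 0.17, -0.71 and -0.32 in HET chow hearts, -0.43, 0.31 and 0.24 in dKO chow hearts, 0.2, 0.57 and 0.5 in dKO probucol hearts and -0.07, 0.27 and 0.32 in HET probucol hearts. Kcnj9, a subunit of G-protein-gated channels, was the 1 tested gene with an array at the floor, and its differences passed no test.

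**Figure D3:**
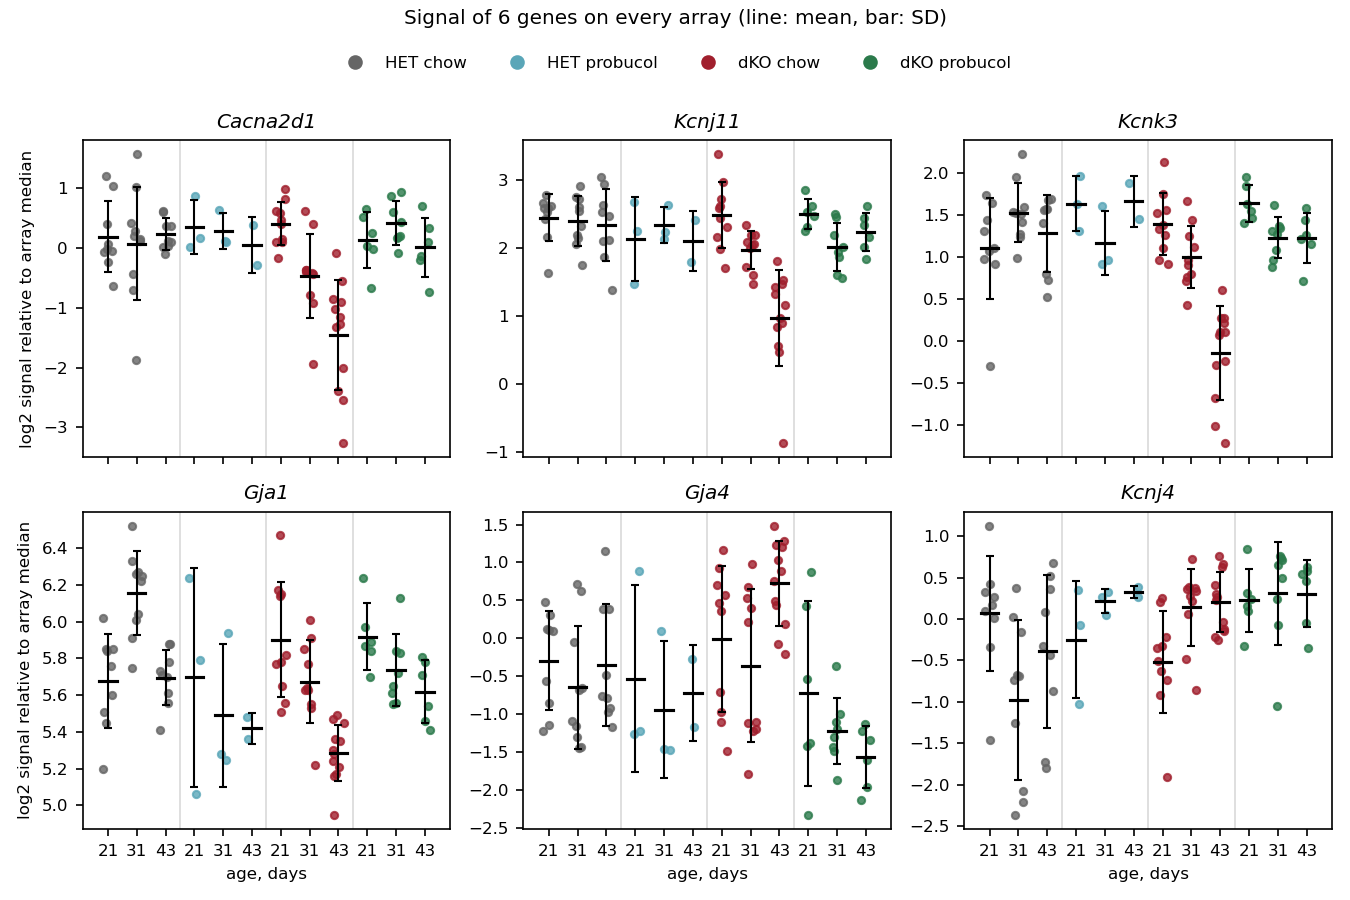
Log2 signal relative to the array median (y axis) on each array for 6 genes, by genotype, diet and age in days (x axis), with a line for the group mean and a bar for the SD. At 43 days Cacna2d1, Kcnj11 and Kcnk3 have lower medians in dKO chow hearts (-1.22, 1.06 and 0.09) than in dKO probucol hearts (-0.02, 2.24 and 1.24). Kcnj4 has low HET chow arrays at 31 days.

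Tandem-pore channels carry background potassium current. Kcnk3 encodes TASK-1, which is sensitive to acid. It read 0.53 to 1.69 (median 1.56) on the 9 HET chow arrays and -1.21 to 0.61 (median 0.09) on the 12 dKO chow arrays at 43 days, and 11 of the 12 dKO hearts lay below every HET heart. Medians at 21 and 31 days of Kcnk3 were 1.11 and 1.51 in HET chow hearts and 1.36 and 0.93 in dKO chow hearts. Kcnk3 fell 2.69-fold at 43 days (-1.43, SE 0.18, adjusted p = 1.67e-10), the lowest adjusted p of the 28 genes, and its difference was -1.08 as deposited (adjusted p = 5.78e-08). At 31 days its difference was -0.52 (SE 0.18, adjusted p = 0.0234), a call lost as deposited (-0.2), after quantile normalization and with the array set as a block. Kcnk4 (TRAAK, a stretch-gated channel) fell at both ages, by 1.03 (SE 0.3, adjusted p = 0.00651) at 31 days and 0.75 (SE 0.3, adjusted p = 0.0323) at 43 days, but as deposited the differences were -0.71 and -0.4 with adjusted p of 0.073 and 0.266, and with the array set as a block both calls were lost. Its medians were 0.72, 1.38 and 0.7 in HET chow hearts, 1.19, 0.24 and 0.22 in dKO chow hearts, 0.68, 0.74 and 0.46 in dKO probucol hearts and 1.45, 0.65 and 0.5 in HET probucol hearts. Kcnk2 (TREK-1, also stretch-gated) fell at 31 days alone among the ages tested (-0.74, SE 0.24, adjusted p = 0.0116), a call lost as deposited (-0.42, adjusted p = 0.243) and with the array set as a block, and was -0.47 at 43 days (adjusted p = 0.0902). Its medians were -0.31, 0.12 and -0.27 in HET chow hearts, -0.2, -0.55 and -0.64 in dKO chow hearts, -0.83, -0.32 and -0.67 in dKO probucol hearts and -0.38, -0.18 and -0.25 in HET probucol hearts. Kcnk1 (TWIK-1) passed no genotype test, with medians of -0.27, -0.4 and 0.04 in HET chow hearts, -0.08, 0.21 and -0.04 in dKO chow hearts, -0.77, 0.23 and 0.08 in dKO probucol hearts and 0.03, 0.41 and 0.18 in HET probucol hearts. Kcnk7, a silent member of the family, was called as deposited at 31 days (0.71, adjusted p = 0.035) and not when centred (0.39, adjusted p = 0.158).

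Of the calcium-activated potassium channels 1 fell. Kcnn1, a small-conductance channel, read -1.02 to 0.88 (median -0.32) on the 9 HET chow arrays and -1.84 to 0.35 (median -1.14) on the 12 dKO chow arrays at 43 days, with 9 of 12 dKO hearts below every HET heart. It fell 1.93-fold (-0.95, SE 0.31, adjusted p = 0.00844), and was not called as deposited (-0.6, adjusted p = 0.113) or with the atrial marker mean as a covariate. Its medians were -0.35, -0.36 and -0.32 in HET chow hearts, -0.63, -0.77 and -1.14 in dKO chow hearts, -0.61, -0.42 and -0.29 in dKO probucol hearts and -0.77, -0.43 and -0.35 in HET probucol hearts. Kcnn4, the intermediate-conductance channel of blood and immune cells, read 0.13 to 2.05 (median 0.88) on the 9 HET chow arrays and 0.84 to 1.38 (median 1.2) on the 12 dKO chow arrays at 43 days and passed no genotype test, beside the macrophage markers that rose by a median of 2.66. Its medians were 0.63, 0.82 and 0.88 in HET chow hearts, 0.81, 0.88 and 1.2 in dKO chow hearts, 0.8, 1.05 and 1.01 in dKO probucol hearts and 0.77, 1.04 and 1.25 in HET probucol hearts. Kcnma1, the large-conductance channel of smooth muscle, differed by -0.42 at 43 days and was not called.

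Both pacemaker genes on the array were bright enough to test. Hcn2 is the main Hcn gene of mouse ventricle. It read 3.95 to 4.51 (median 4.34) on the 9 HET chow arrays and 3.16 to 4.07 (median 3.63) on the 12 dKO chow arrays at 43 days, and 10 of the 12 dKO hearts lay below every HET heart. In younger hearts of 21 and 31 days, the medians of Hcn2 were 4.36 and 4.47 in HET chow hearts and 4.34 and 3.98 in dKO chow hearts. Hcn2 fell 1.59-fold at 43 days (-0.67, SE 0.11, adjusted p = 8.89e-08) and by 0.33 as deposited (adjusted p = 0.0322). At 31 days it fell 1.43-fold (-0.52, SE 0.11, adjusted p = 1.21e-04), and that call was lost as deposited (-0.2, adjusted p = 0.282), after quantile normalization (adjusted p = 0.0521) and when its probe sets were averaged. The array's makers mark its probe set as one that broke a design rule, and the second probe set gave a larger fall at 43 days (-2.01, adjusted p = 1.37e-06) and no call at 31 days (-0.29, adjusted p = 0.584). The probe sets used for Kcnq1, Kcnd2, Kcnj9 and Gjc1 carry the same mark. Hcn3 was the 1 gene called at 21 days, before disease is described. It read -0.03 to 2.09 (median 1.37) on the 9 HET chow arrays and 1.27 to 2.56 (median 2.19) on the 10 dKO chow arrays, and 6 dKO hearts lay above every HET heart. The difference was 0.79 (SE 0.22, adjusted p = 0.0199), and it was not called as deposited (0.58, adjusted p = 0.198), after quantile normalization (0.65, adjusted p = 0.106) or with the array set as a block (0.7, adjusted p = 0.0821). At 31 and 43 days it was 0.07 and -0.2.

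Of 4 connexins tested, Gja1 fell at 43 days, though not as deposited, and Gja4 rose. Gja1 encodes connexin 43, the main gap junction protein of working heart muscle, and was bright on its probe set (one that shares sequence with a gene family). It read 5.41 to 5.88 (median 5.71) on the 9 HET chow arrays and 4.95 to 5.49 (median 5.29) on the 12 dKO chow arrays at 43 days, and 9 of 12 dKO hearts lay below every HET heart. At 21 and 31 days the medians of Gja1 were 5.76 and 6.24 in HET chow hearts and 5.8 and 5.64 in dKO chow hearts. Gja1 fell 1.33-fold at 43 days (-0.41, SE 0.11, adjusted p = 9.13e-04) and 1.4-fold at 31 days (-0.48, SE 0.11, adjusted p = 4.12e-04), but as deposited the differences were -0.06 and -0.16 and neither was called (adjusted p = 0.63 and 0.251). Its second probe set fell too at 31 days (-0.51, adjusted p = 0.0354) and gave 0.09 at 43 days (adjusted p = 0.746). Gja4 encodes connexin 37, a connexin of arterial endothelium. It read -1.17 to 1.15 (median -0.76) on the 9 HET chow arrays and -0.21 to 1.48 (median 0.82) on the 12 dKO chow arrays at 43 days. The HET values reached into the dKO range, and 4 dKO hearts lay above every HET heart. Earlier, at 21 and 31 days, medians of Gja4 were 0.1 and -0.88 in HET chow hearts and 0.41 and -0.44 in dKO chow hearts. Gja4 rose 2.11-fold (1.08, SE 0.35, adjusted p = 0.00797), and its log2 difference was 1.42 as deposited (adjusted p = 5.07e-04). Of the endothelial markers beside it, Cdh5 differed by -0.09, Kdr by -0.06, Tek by 0.16, Tie1 by -0.19, Pecam1 by 0.08 and Eng, the 1 called, by 0.35 (2 of the 6 were called higher as deposited), and their part in the result was not tested.

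Gja5 (connexin 40, of atria, conduction fibres and arteries) passed no genotype test under the main scaling. As deposited it was called at 31 days (1.05, adjusted p = 0.0125), where centring gave 0.73 (adjusted p = 0.0519) and the array set as a block 0.2 (adjusted p = 0.697). The medians of Gja5 were 0.83, 0.27 and 0.6 in HET chow hearts, 0.81, 0.82 and 0.92 in dKO chow hearts, 0.68, 0.75 and 1.04 in dKO probucol hearts and 1.01, 1.18 and 0.55 in HET probucol hearts. Gjb5 (a connexin known from skin and placenta) differed at 31 days by -0.65 (SE 0.17, adjusted p = 0.00169), a call lost as deposited (-0.33, adjusted p = 0.232) and with the array set as a block (adjusted p = 0.0869). Its medians were 0.46, 0.68 and 0.71 in HET chow hearts, 0.58, 0.01 and 0.44 in dKO chow hearts, 0.49, 0.53 and 0.62 in dKO probucol hearts and 0.63, 0.64 and 0.77 in HET probucol hearts.

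The floor, set at the 10th percentile of all signals (4.22), held many of these genes. It was reached on over 44 of the 88 arrays by 5 genes: Gja10 (83 arrays), Scn1a (68), Kcna6 (67), Scn3a (63) and Scn9a (56). A further 35 genes reached it on 1 to 44 arrays, among them Gjb6 (44), Kcnj2 and Kcnh1 (39 each), Kcnmb1 (34), Cacna1a (28), Gjb2 and Gjd2 (23 each), and Cacna1g and Scn10a (21 each), and 33 genes reached it on none. All 6 sodium channel genes reached it on some array and none was tested. These are mostly the sodium channels of nerve. Of a list of 38 channel and connexin genes of heart muscle, 30 were on the array under a symbol of their own and 18 were tested. The other 12 on the array were too dim for the main test and were read without the filter, and genes of the list with no such probe set were not analysed here.

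**Figure D4:**
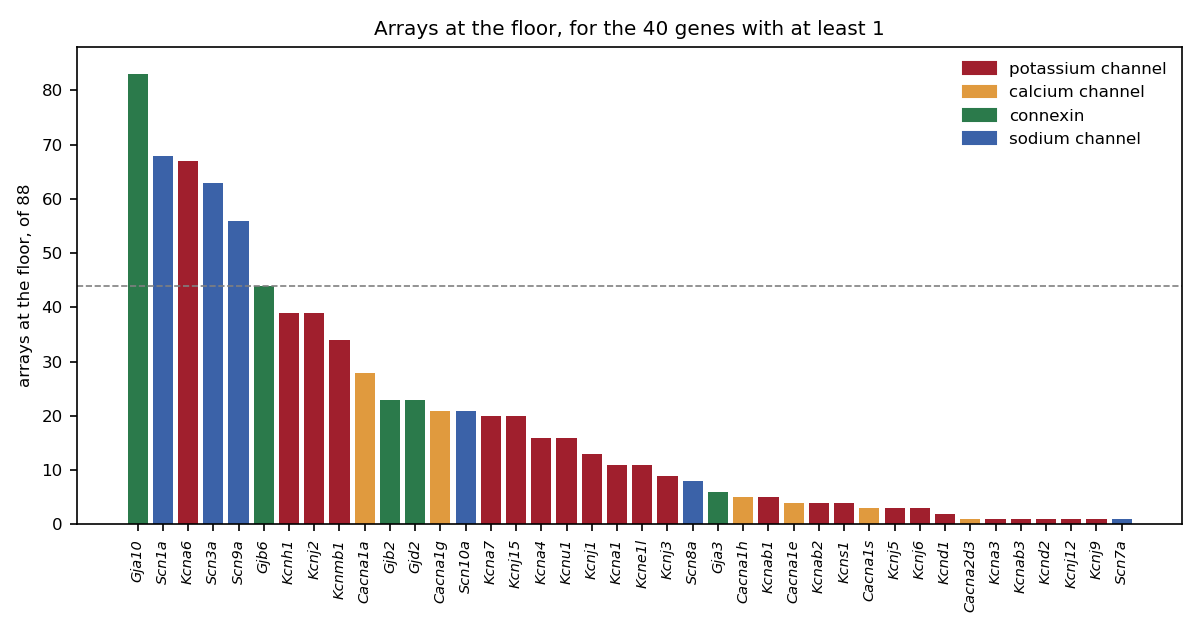
Number of the 88 arrays at the floor (y axis) for the 40 channel and connexin genes with at least 1 such array (x axis), coloured by family, with a dashed line at 44 arrays. Gja10 (83) and Scn1a (68) lead, and no pacemaker gene appears.

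Dim genes of heart muscle were read without the filter, where p-values are adjusted over all 8251 genes. Among those that reached the floor on few arrays, Kcnj5 and Kcnj12, both inward rectifiers, differed at 43 days by -0.95 (adjusted p = 0.0292) and -0.77 (adjusted p = 0.0239), and Gjc1, a connexin of conduction tissue, by -0.66 (adjusted p = 0.0154), and none of the 3 was called as deposited (-0.61, -0.42 and -0.31). The medians of Kcnj5 were -0.41, -1.91 and -1.91 in HET chow hearts, -0.15, -2.57 and -2.71 in dKO chow hearts, -0.63, -1.76 and -1.96 in dKO probucol hearts and 0.1, -1.88 and -2.08 in HET probucol hearts, so each genotype and diet had its highest median at 21 days. The medians of Kcnj12 were -1.39, -0.42 and -0.89 in HET chow hearts, -1.44, -1.38 and -1.63 in dKO chow hearts, -1.22, -1.44 and -1.49 in dKO probucol hearts and -0.48, -2.79 and -1.3 in HET probucol hearts. Those of Gjc1 were -0.96, -1.24 and -1.36 in HET chow hearts, -1.62, -1.65 and -1.97 in dKO chow hearts, -1.5, -1.26 and -1.63 in dKO probucol hearts and -1.58, -1.41 and -1.49 in HET probucol hearts. Kcnj3, which pairs with Kcnj5 in the acetylcholine-gated channel of atria, had medians of -0.66, -2.7 and -1.55 in HET chow hearts, -2.49, -1.65 and -1.8 in dKO chow hearts, -1.11, -0.6 and -0.79 in dKO probucol hearts and -0.99, -0.25 and -0.44 in HET probucol hearts and reached no adjusted p under 0.05 between genotypes at 31 or 43 days. Kcna4, a transient-current channel, had medians of -1.83, -2.21 and -2.51 in HET chow hearts, -2.74, -2.11 and -1.99 in dKO chow hearts, -2.46, -2.17 and -2.72 in dKO probucol hearts and -2.03, -2.83 and -2.33 in HET probucol hearts, and Kcna3, known best from lymphocytes, of -0.51, -0.77 and -0.29 in HET chow hearts, -0.97, -0.87 and -0.89 in dKO chow hearts, -0.74, -0.46 and -0.9 in dKO probucol hearts and -1.96, 0.1 and -0.98 in HET probucol hearts. The T-type calcium channel genes Cacna1g and Cacna1h had medians of -2.68, -2.33 and -2.8 in HET chow hearts, -2.54, -3 and -3.67 in dKO chow hearts, -2.64, -2.97 and -2.84 in dKO probucol hearts and -2.72, -3.01 and -3.02 in HET probucol hearts, and of -1.91, -1.67 and -1.69 in HET chow hearts, -2.51, -2.23 and -1.96 in dKO chow hearts, -1.88, -2.25 and -2.29 in dKO probucol hearts and -1.73, -1.5 and -2.35 in HET probucol hearts. Scn7a had medians of -1.4, -1.29 and -1.26 in HET chow hearts, -0.29, -1.41 and -2.11 in dKO chow hearts, -2.23, -1.09 and -1.03 in dKO probucol hearts and -0.65, -1.08 and -1.47 in HET probucol hearts. For Kcnj2 (Kir2.1, the main inward rectifier of ventricle) and Kcnmb1 (a smooth muscle subunit), at the floor on 39 and 34 arrays, the medians were -2.82, -3.11 and -3.23 in HET chow hearts, -2.74, -3.23 and -2.22 in dKO chow hearts, -3.07, -3.19 and -2.71 in dKO probucol hearts and -2.51, -2.69 and -1.36 in HET probucol hearts, and -2.55, -2.98 and -2.69 in HET chow hearts, -2.83, -3.21 and -3.4 in dKO chow hearts, -3.07, -2.86 and -3.05 in dKO probucol hearts and -2.83, -2.39 and -3.25 in HET probucol hearts. No fold is given for genes so often at the floor. The floor was set before centring, so an array at the floor reads lower the brighter the array is. The mean log2 of the array medians was 5.87 in dKO and 5.52 in HET chow hearts at 43 days. Lower medians in dKO hearts of genes often at the floor, such as Cacna1g (21 arrays), are therefore not read as genotype differences.

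Kcnab2, a beta subunit of Kv1 channels that was too dim for the main test, rose at 43 days on its brighter probe set when no filter was used (1.31, SE 0.3, adjusted p = 2.31e-04, and 1.66 as deposited), while its other probe set gave 0.27. It read -2.53 to -0.28 (median -1.43) on the 9 HET chow arrays and -0.58 to 0.2 (median -0.1) on the 12 dKO chow arrays. It was singled out after its values were seen. Without the filter 33 of the 73 genes were called at 43 days, 2 higher and 31 lower, beside 15.3% and 26.0% of all 8251 genes. Without the filter and as deposited 4 were higher and 8 lower, beside 28.2% and 8.53% of all genes.

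Interaction terms asked if the genotype difference depended on age. Between 21 and 43 days it moved down in 11 of the 28 genes and up in 1 (23.5% and 9.61% of all genes), most in Cacna2d1 (-1.9), Kcnk3 (-1.72, SE 0.26, adjusted p = 1.27e-07) and Kcnj11 (-1.42), and these 3 changes were called under all 4 settings, as 7.21% of all genes were upward and 6.05% downward. On the larger array set alone the change of Kcnj11 was not called. As deposited 5 of the 28 moved up and 3 down, beside 32.9% and 6.06% of all genes. Between 21 and 31 days it moved down in 7 and up in 1, Kcnj4 (20.9% and 4.27% of all genes), and none was called under all 4 settings (0.317% and 0.670%). Over that span 3 moved up and none down as deposited, beside 14.0% and 0.458% of all genes. In HET chow hearts from 21 to 43 days, Cacna2d1, Kcnk3 and Kcnj11 differed by 0.04 (SE 0.29), 0.18 (SE 0.19) and -0.1 (SE 0.21).

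Probucol in dKO mice was compared with chow at each age. At 43 days 9 of the 28 genes were higher on probucol and 1 was lower, beside 21.3% and 17.0% of all genes, with a median difference of 0.24 against 0.08. The 9 were Cacna2d1, Cacna1c, Cacnb2, Kcnh2, Kcnj11, Kcnk3, Kcnn1, Hcn2 and Gja1, and Gja4 was lower. As this comparison uses the same dKO chow hearts as the genotype comparison, values from both are given side by side and not as separate support. Called under all 4 settings were Cacna2d1, Cacnb2, Kcnj11 and Kcnk3 (higher) and Gja4 (lower), beside 8.22% and 16.8% of all genes. As deposited 4 genes were higher and 4 lower, beside 8.22% and 37.4% of all genes. For 5 of the 28 genes (Cacna1c, Cacnb2, Kcnj11, Kcnk3 and Gja4) the dKO probucol and dKO chow hearts at 43 days did not overlap, as for 14.5% of all genes.

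Kcnk3 on probucol in dKO hearts read 1.4 to 1.95 (median 1.59) at 21 days, 0.88 to 1.62 (median 1.29) at 31 days and 0.72 to 1.58 (median 1.24) at 43 days, where its lowest heart lay above the highest dKO chow heart. It was higher on probucol by 1.37 (SE 0.21, adjusted p = 3.41e-08) at 43 days, and by 0.99 as deposited. In HET probucol hearts Kcnk3 read 1.96, 1.31 and 1.63 at 21 days, 0.92, 0.97 and 1.61 at 31 days and 1.88 and 1.45 at 43 days. Kcnj11 read 2.24 to 2.84 (median 2.5), 1.56 to 2.5 (median 1.97) and 1.84 to 2.61 (median 2.24) at the same ages in dKO probucol hearts, again clear of dKO chow hearts at 43 days, and was higher by 1.27 (SE 0.22, adjusted p = 9.82e-07) there and by 0.05 at 31 days. The HET hearts on probucol read 1.46, 2.67 and 2.25 at 21 days, 2.13, 2.23 and 2.63 at 31 days and 2.41 and 1.79 at 43 days for Kcnj11. For both genes the HET probucol values lay above the median of the dKO chow hearts at 43 days. Those of Kcnk3 lay above every one of these dKO chow hearts, whereas 1.46 and 1.79 of Kcnj11 lay below the highest.

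With arrays centred, the L-type calcium channel genes were higher on probucol at 31 and 43 days. Cacna2d1 in dKO probucol hearts read -0.67 to 0.65 (median 0.13), -0.09 to 0.94 (median 0.31) and -0.74 to 0.7 (median -0.02) at 21, 31 and 43 days, and overlapped with dKO chow hearts at 43 days, 3 of 6 lying above them all. It differed by 0.87 (adjusted p = 0.0266) at 31 days and 1.46 (SE 0.31, adjusted p = 7.30e-05) at 43 days, and as deposited by 0.63 (adjusted p = 0.163) and 1.07 (adjusted p = 0.0104). For Cacna2d1, HET hearts on probucol read 0.01, 0.17 and 0.86 at 21 days, 0.63, 0.12 and 0.1 at 31 days and 0.38 and -0.28 at 43 days. Cacna1c read 2.44 to 2.82 (median 2.69), 2.55 to 3.02 (median 2.67) and 2.56 to 2.9 (median 2.78), and differed by 0.45 and 0.61 at 31 and 43 days (adjusted p = 0.00228 and 1.58e-05), which as deposited were 0.21 and 0.23 and not called. In HET probucol hearts Cacna1c read 2.67, 2.18 and 2.75 at 21 days, 2.62, 2.94 and 3.03 at 31 days and 2.98 and 2.74 at 43 days. Cacnb2 read 1.95 to 2.98 (median 2.5), 2.03 to 3.04 (median 2.56) and 2.25 to 3.13 (median 2.68). It differed by 0.61 at 31 days (adjusted p = 0.00104, not called as deposited) and by 0.93 at 43 days (SE 0.15, adjusted p = 3.18e-07, and 0.54 as deposited, adjusted p = 0.0113). The HET hearts on probucol read 2.07, 3.09 and 2.47 at 21 days, 2.62, 2.8 and 2.81 at 31 days and 2.51 and 1.99 at 43 days for Cacnb2.

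Hcn2 in dKO probucol hearts read 3.87 to 4.37 (median 4.18), 4.01 to 4.8 (median 4.34) and 3.89 to 4.41 (median 4.12) at 21, 31 and 43 days. It was higher than on chow by 0.35 at 31 days (adjusted p = 0.0215) and 0.52 at 43 days (adjusted p = 2.21e-04), and as deposited by 0.1 and 0.13, neither called. For Hcn2, HET hearts on probucol read 4.26, 4.64 and 4.22 at 21 days, 4.15, 4.2 and 4.15 at 31 days and 4.52 and 4.59 at 43 days. Kcnh2 read 1.82 to 2.78 (median 2.41), 0.76 to 2.35 (median 2.14) and 1.8 to 2.29 (median 1.98), and was higher by 0.39 at 43 days (adjusted p = 0.0347), a call lost as deposited (a difference of 0). In HET probucol hearts Kcnh2 read 2.53, 2.26 and 2.52 at 21 days, 1.43, 2.09 and 2 at 31 days and 2.47 and 2.04 at 43 days. Kcnn1 was higher by 1.21 (SE 0.35, adjusted p = 0.00386) at 43 days, and by 0.82 as deposited (adjusted p = 0.0554).

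On probucol the connexin gene Gja4 was far lower. Gja4 in dKO probucol hearts read -2.33 to 0.88 (median -0.96), -1.87 to -0.37 (median -1.25) and -2.13 to -1.13 (median -1.48) at 21, 31 and 43 days, and at 43 days each of the 6 lay below every dKO chow heart. The difference was -2.29 (SE 0.4, adjusted p = 1.36e-06), 4.9-fold, the largest in size of any in the 28 genes at this age, and -2.68 as deposited. The HET hearts on probucol read -1.27, -1.22 and 0.89 at 21 days, -1.47, 0.1 and -1.46 at 31 days and -0.28 and -1.17 at 43 days for Gja4. Gja1 read 5.7 to 6.24 (median 5.88), 5.55 to 6.13 (median 5.69) and 5.41 to 5.81 (median 5.62), and was higher on probucol by 0.33 at 43 days (adjusted p = 0.0233), a direction that turned as deposited (-0.06, adjusted p = 0.725). For Gja1, HET hearts on probucol read 6.24, 5.79 and 5.06 at 21 days, 5.94, 5.28 and 5.25 at 31 days and 5.48 and 5.36 at 43 days.

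**Figure D5:**
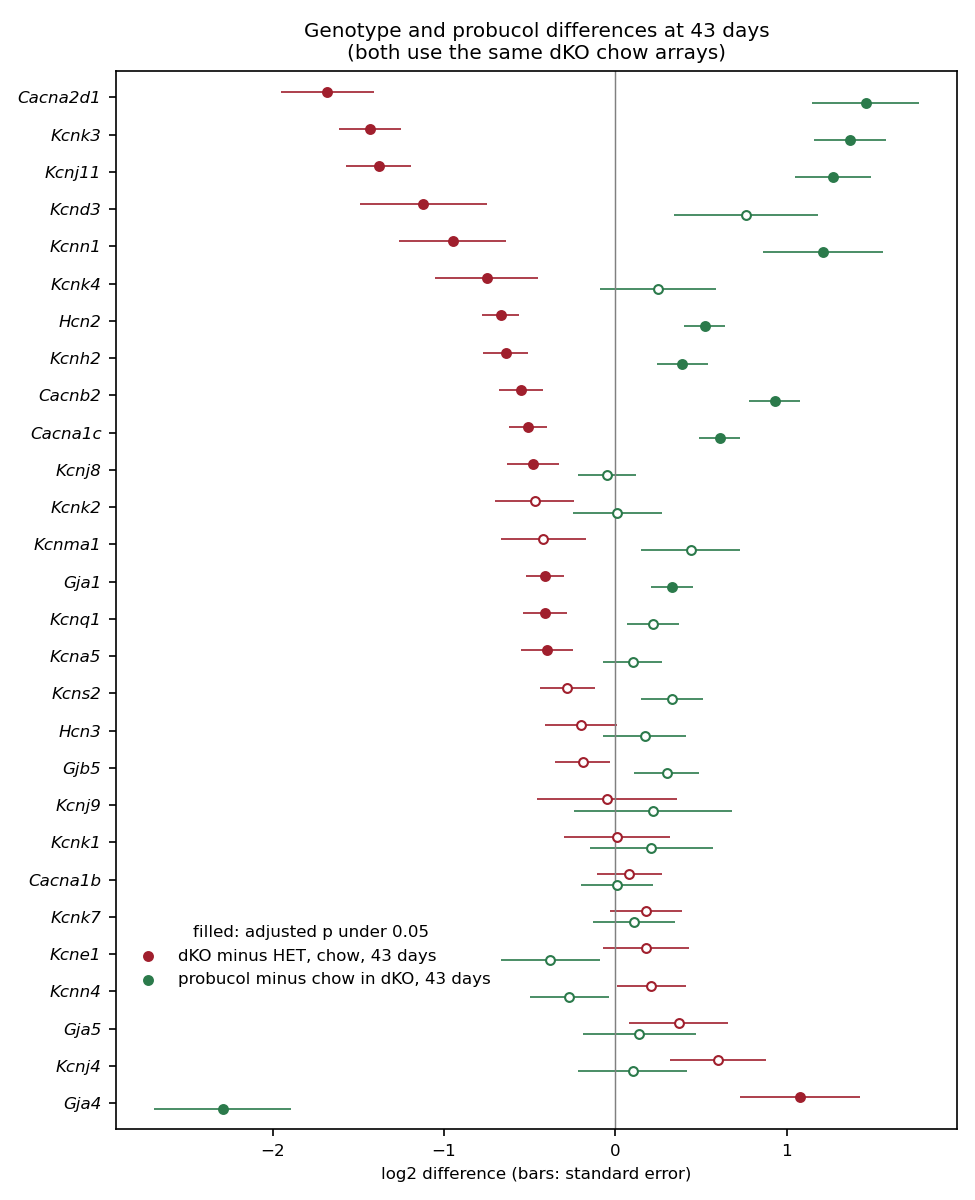
Log2 differences (x axis) at 43 days for the 28 tested genes, dKO minus HET on chow and probucol minus chow in dKO, which share the dKO chow arrays, with points for the estimate, bars for its standard error and filled points for an adjusted p under 0.05. The 9 genes higher on probucol include Cacna2d1 (1.46) and Kcnk3 (1.37), and Gja4 (-2.29) is the 1 gene lower.

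At 31 days 5 genes were higher on probucol in dKO hearts (Cacna1c, Cacna2d1, Cacnb2, Gjb5 and Hcn2) and Kcnj8 was lower, beside 7.95% and 11.4% of all genes. Of these only the fall of Kcnj8 (-0.58, SE 0.16, adjusted p = 0.00554, and -0.83 as deposited) was called under all 4 settings, as were 1.99% of all genes higher and 11.1% lower. As deposited, none of the 28 was higher and 5 were lower, beside 2.13% and 26.8% of all genes. At 21 days none was called by limma (0.0705% of all genes higher and 1.22% lower), and 5 of 28 had an unadjusted p under 0.05, with Hcn3 lowest (adjusted p = 0.0851).

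In HET mice, over the mean of 3 ages, Kcnj8 was lower on probucol (-0.57, SE 0.14, adjusted p = 0.00934) and none of the other genes was called (0.406% of all genes higher, 2.26% lower). In HET probucol hearts Kcnj8 read 1.79, 1.68 and 1.35 at 21 days, 1.39, 0.99 and 0.88 at 31 days and 1.13 and 0.71 at 43 days, against chow medians of 1.76, 1.91 and 1.67. The call held under all 4 settings and was lost without replicate 2 at 43 days or on the larger array set alone. With Kcnj8 also lower on probucol in dKO hearts at 31 days (at 43 days the difference was -0.05, and -0.43 as deposited, adjusted p = 0.0123), it was the 1 gene called lower on probucol in each genotype. Between dKO and HET hearts on probucol none of the 28 genes was called (0.0353% of all genes in each direction), 2 had an unadjusted p under 0.05, and Kcna5 came lowest (-0.41, SE 0.15, adjusted p = 0.669). The HET probucol groups held 3, 3 and 2 mice, and the standard errors of that comparison ran to 0.39 for Kcnj9.

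The effect of probucol differed between genotypes at 31 and 43 days in 8 genes by the interaction test, 7 with a larger value in dKO and 1 smaller (18.9% and 8.80% of all genes): Cacna2d1 (1.15), Cacnb2 (0.54), Gja1 (0.67), Hcn2 (0.48), Kcnd3 (1.58), Kcnj11 (0.81), Kcnk3 (0.79) and Gja4 (-1.24). None was called under all 4 settings (5.89% and 7.56% of all genes), and without replicate 2 of the HET probucol hearts at 43 days 3 of the 28 genes were called in place of 8. As deposited none of the 28 had a larger value in dKO and 3 had a smaller one, beside 5.91% and 24.2% of all genes.

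Genes that work with the channels were counted from lists. Over all genes tested, 28.0% were lower and 19.2% higher in dKO chow hearts at 43 days. Of 20 intercalated disc genes and channel partners 14 were tested. Of these, 7 were lower and 1 higher at that age, with a median of -0.37: N-cadherin (Cdh2, -1.21), the sodium channel anchor Ank3 (-0.99), the channel modulator Fgf13 (-0.95), plakoglobin (Jup, -0.83), desmoplakin (Dsp, -0.72), alpha-catenin (Ctnna1, -0.67) and Cav3 (-0.46) fell, and beta-catenin (Ctnnb1, 0.27) rose. As deposited 6 were lower and 3 higher, beside 11.6% and 37.0% of all genes. On probucol 7 of the 14 were higher in dKO hearts and none lower (21.3% and 17.0% of all genes), with 2 and 2 as deposited. Of 10 pumps and exchangers 5 were tested and 4 were lower at 43 days (3 as deposited): Atp1b2 (-1.31) and Atp1b1 (-0.39), beta subunits of the sodium pump, its regulator Fxyd1 (-0.97) and the anion exchanger Slc4a3 (-0.94), whereas the sodium-calcium exchanger Slc8a1 differed by -0.28 (adjusted p = 0.0821). Of 17 transcription factors known to act on channel genes 9 were tested and 5 were lower (1 as deposited): Hand2 (-1.37), Nkx2-5 (-0.92), Gata4 (-0.49), Gata6 (-0.34) and Mef2a (-0.31). In dKO probucol hearts Hand2 (1.3), Gata6 (0.5) and Mef2a (0.49) were higher than on chow, whereas as deposited 1 was higher and 1 lower.

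Since heart muscle markers fell too, each gene was also read relative to the mean of the 7 markers on the same array, a quantity chosen after the data were seen. On that scale the median of all genes was 0.84 higher in dKO chow hearts at 43 days, 79.0% of genes were higher and 2.42% lower. Of the 28 genes 19 were higher and 2 lower, with a median of 0.51. The 2 lower were Cacna2d1 (-0.75, SE 0.32, adjusted p = 0.0267) and Kcnk3 (-0.5, SE 0.17, adjusted p = 0.00604), whose signals fell further than the mean of these 7 markers. The atrial markers fell by a median of 1.47 on the main scale, beside 1.68 for Cacna2d1 and 1.43 for Kcnk3. Kcnj11 gave -0.45 (adjusted p = 0.0629) and Hcn2 0.25 (adjusted p = 0.0878). Gja1 gave 0.52 (adjusted p = 8.94e-06), so its signal fell less than theirs. In dKO probucol against dKO chow hearts at 43 days none was higher and 20 were lower, where 1.30% and 82.7% of all genes were.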

How the data were processed

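RNA of 88 whole mouse hearts, 1 mouse per array, was measured on Affymetrix arrays. The authors deposited an intensity per probe set (12488 probe sets), made with MAS5 per the submitters' processing notes. The sources used here do not give its version or any scaling between arrays. Gene symbols came from the platform annotation: a single gene for 10855 probe sets and several for 396.

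Signals were floored at the 10th percentile of all values (4.22), turned to log2 and centred on the median of each array. Control probe sets and the lowest 40% by mean were left out, and the highest-mean probe set stood for each gene, which gave 5672 genes. One limma fit (3.58.1, R 4.3.3, data.table version 1.17.8) with 12 group means and an intensity trend gave all 12 comparisons, with Benjamini-Hochberg adjustment over all genes tested in each and a threshold of 0.05. The number of arrays limits the precision.

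Values in every group were given for genes called in dKO against HET chow hearts or in dKO probucol against chow hearts at 31 or 43 days, and for a list of heart channel genes. The genes, lists and markers were chosen with earlier results of these data known. The array sets were found in the residuals: 40 genes from each end of the second component scored each array, and the scores left a gap. Alternatives changed the scaling, floor, filter, probe set rule, trend, weights, covariates and arrays. Replicate numbers did not pair the hearts: median correlations of same-numbered residuals ran from -0.0539 to 0.0315.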

Additional observations from a re-analysis of the deposited data

Results flagged for a closer look

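Single arrays stood apart from their group in 9 of 176 sets of 4 to 10 arrays, over 22 genes, and chance alone gives about 1 in 20. In dKO probucol hearts at 31 days these were Cacna1c in replicate 7 (3.02), Gja5 in replicate 2 (-1.5) and Kcnj4 in replicate 5 (-1.05), and at 43 days Kcnn4 in replicate 2 (0.23). In HET chow hearts they were Kcnk2 in replicate 1 (-1.62) and Kcnk3 in replicate 2 (-0.29) at 21 days, Kcnk2 in replicate 9 (-2.06) at 31 days, and Kcna5 in replicate 5 (2.53) and Kcne1 in replicate 1 (-0.78) at 43 days.

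The genotype difference on chow changed between ages by the interaction test in limma. From 21 to 31 days the changes were -0.59 for Cacna1c, -0.71 for Gja1, -0.73 for Gjb5, -0.56 for Hcn2, 1.7 for Kcnj4, -0.96 for Kcnk2, -0.81 for Kcnk3 and -1.56 for Kcnk4. From 21 to 43 days they were -0.7 for Cacna1c, -1.9 for Cacna2d1, -0.72 for Cacnb2, -0.64 for Gja1, -0.72 for Hcn2, -0.99 for Hcn3, -0.76 for Kcnh2, -1.42 for Kcnj11, 1.18 for Kcnj4, -0.56 for Kcnj8, -1.72 for Kcnk3 and -1.28 for Kcnk4. The probucol effect differed between dKO and HET hearts by 1.15 for Cacna2d1, 0.54 for Cacnb2, 0.67 for Gja1, -1.24 for Gja4, 0.48 for Hcn2, 1.58 for Kcnd3, 0.81 for Kcnj11 and 0.79 for Kcnk3. All are calls under the main scaling, beside 4.27% of all genes up and 20.9% down to 31 days. To 43 days the shares were 9.61% and 23.5%, and for the probucol effect 18.9% and 8.80%. Called under all 4 settings were 0 of 8 changes to 31 days, 3 of 12 to 43 days and 0 of 8 probucol effects. By that rule the shares of all genes were 0.670% up and 0.317% down, 7.21% and 6.05%, and 5.89% and 7.56%, in turn.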

How the results depend on the processing

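Of 70 gene calls 21 were kept as deposited, 54 after quantile normalization, 46 with the array set as a block and 36 on the larger array set alone, and 2 reversed as deposited: Gja1 on probucol at 43 days (-0.06) and the change of Kcnj8 from 21 to 43 days (0), with the same values when the filter was also dropped. The cause was not tested. With the replicate number as a block 64 calls were kept, and probucol at 21 days gave 1 call and probucol in HET hearts 2; the samples share only a number. Dim signals limit 45 of the 73 genes.

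Counts of called genes moved as follows. At 21 days 1 call became 0 after quantile normalization, with only the groups compared, the array set block, the actin ratio or the larger set, or without 4 extreme arrays. At 31 days 8 became 3 as deposited, 4 after quantile normalization, 3 with the block and 3 on the larger set, and at 43 days 15 became 7 as deposited and 33 without the filter. The change from 21 to 31 days went from 8 to 3 as deposited, 3 after quantile normalization, 0 with the block, 5 with the actin ratio and 0 on the larger set, and that to 43 days from 12 to 4 on the larger set. The 3 changes from 21 to 31 days called as deposited were all upward (14.0% of all genes upward, 0.458% downward). With age in HET hearts, 1 call became 4 as deposited, 2 after quantile normalization, 0 with array weights, 2 with the Gapdh ratio, 2 on the larger set, 5 with neither filter nor centring and 0 without HET chow replicate 1. Probucol at 21 days gave 1 call with array weights, and at 43 days 16 without the filter. In HET hearts probucol gave 2 as deposited, 2 with array weights, 2 with the Gapdh ratio, 0 on the larger set and 2 without 4 extreme arrays, and 0 to 2 leaving out 1 array. The difference in probucol effect went from 8 to 3 as deposited, 5 after quantile normalization, 4 with the block and 4 on the larger set, and to between 3 and 9 leaving out 1 array. The 3 called as deposited were all smaller in dKO (5.91% of all genes larger, 24.2% smaller).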
